A study of Mus musculus with 8 samples.

Results

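The genes described here are 10 mouse myeloid C-type lectin receptors: Clec4a1, Clec4a2, Clec4a3, Clec4d, Clec4e, Clec4n, Clec5a, Clec7a, Clec10a and Clec12a. They were taken by gene name from a table of read counts for 54532 genes, and all 10 had enough counts to be tested. The counts come from neutrophils of mouse mammary tumours. Balb/c mice carried tumours in the mammary fat pad that arose from injected 2208L cells, which are mouse mammary tumour cells, and the labels state no treatment. Each tumour was collected and dissociated once it measured 1 cm across, and its neutrophils were sorted by the level of ICAM1 into ICAM1high and ICAM1low cells. ICAM1, or CD54, is a surface ligand of beta2 integrins. There were 4 biological replicates of either fraction. All cells came from tumours of this size, the labels name no neutrophils from blood or from mice without a tumour, and the sources used here give neither the age and sex of the mice nor the gates of the sort. Nothing says that each replicate came from its own mouse, so the p-values below measure the spread between these samples.

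C-type lectin receptors of this family are membrane proteins with a carbohydrate-recognition-like domain that binds glycans, glycolipids or other ligands of microbes and of damaged or dying cells. The activating members either couple to the adaptors FcR gamma (Fcer1g) or DAP12 (Tyrobp) or carry a signalling motif in their own tail, and recruit the kinase SYK, which acts through the CARD9, BCL10 and MALT1 complex on NF-kappaB. The inhibitory members carry a tail motif, the ITIM, that recruits phosphatases such as SHP-1 (Ptpn6). Neutrophils, monocytes, macrophages and dendritic cells carry different members.

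The libraries held 10328575 to 22751975 counts, each from 100 ng of total RNA. Levels are given as CPM, counts scaled to a library total of 1000000, after TMM scaling, a method that matches libraries on the bulk of their genes. The scaling factors were 1.18 to 1.34 in ICAM1high and 0.705 to 0.865 in ICAM1low. Differences are log2 fold changes, ICAM1high over ICAM1low, tested with edgeR (quasi-likelihood F test), and a gene passed at a Benjamini-Hochberg adjusted p under 0.05 over the 14051 genes tested. Of these genes 42.1% passed, 22.6% as higher and 19.6% as lower in ICAM1high. Scaling by library totals alone moved the median of all genes by 0.68 on the log2 scale and the part of the calls that were higher from 53.6% to 89%. Icam1 itself was higher in ICAM1high, with a log2 fold change of 0.78 (SE 0.20, edgeR adjusted p = 0.0105). Neutrophil markers were present in both fractions, with a summed level of 10550 to 14572 CPM in ICAM1high and 44553 to 90354 CPM in ICAM1low. All 17 that could be tested of 19 were lower in ICAM1high, and Elane and Mpo had too few counts to test. Of 17 macrophage markers 16 could be tested and 14 were higher. Their summed level was 10255 to 16977 CPM in ICAM1high and 1207 to 1866 CPM in ICAM1low, with Marco at 0 in both fractions and Timd4 at 0 in ICAM1low. In these bulk samples, fewer cells of a type and less RNA per cell cannot be told apart. ICAM1high replicate 1 had both the highest macrophage sum and the highest neutrophil sum of its group, and so had ICAM1low replicate 4 in its own. In ICAM1low replicate 4, genes shorter than 1000 bases took 11.1% of the counts, against 3.41% to 6.32% in the other libraries.

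The 10 receptors did not move together. Of the 10, 4 were higher in ICAM1high (Clec4a1, Clec4a3, Clec10a and Clec12a), 3 were lower (Clec4d, Clec4e and Clec7a) and 3 did not pass (Clec4a2, Clec4n and Clec5a). The median log2 fold change over the 10 was 0.52, against 0.080 over all genes tested. The CPM ranges of the fractions did not overlap for 7 of the 10, with ICAM1high above for 4 and below for 3. Among all genes tested the ranges did not overlap for 41.5%, with ICAM1high above for 23.4% and below for 18%. Scaled by library totals, 7 of the 10 were higher and 3 lower, against 48.5% and 5.97% of all genes tested. Per kb of gene length the 3 lower receptors had the highest levels of the 10 in ICAM1low, and Clec4e and Clec4d were among the 100 most counted genes by mean CPM.

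**Figure D1:**
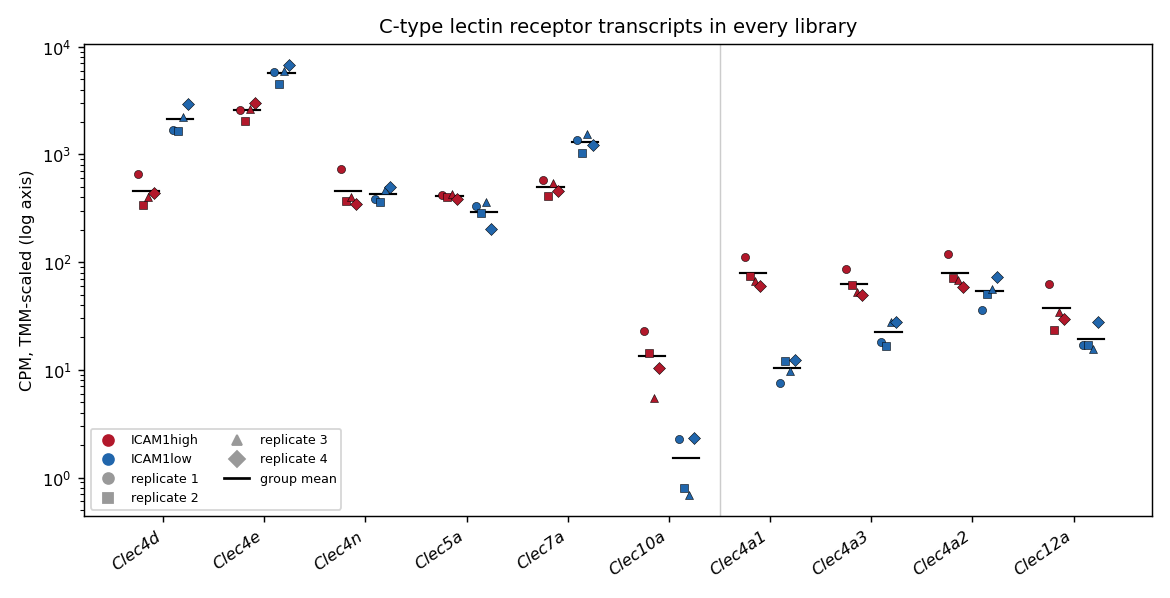
Level of each receptor in the 8 libraries, in TMM-scaled CPM on a log axis, with ICAM1high in red, ICAM1low in blue, a symbol for each replicate and a line at the group mean. Receptors to the right of the grey line are the Clec4a (DCIR) genes and Clec12a, and the libraries separate downwards for Clec4d, Clec4e and Clec7a and upwards for Clec4a1, Clec4a3 and Clec10a, with ranges that do not overlap.

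Among the activating receptors, Clec4d, Clec4e and Clec7a were lower in ICAM1high by 4.64-fold, 2.23-fold and 2.60-fold. Clec4d (MCL) and Clec4e (Mincle) pair with FcR gamma and sense mycobacterial glycolipids, and Mincle also senses the nuclear protein SAP130 of dying cells. Clec7a (Dectin-1) binds beta-glucans of fungi and signals through a motif in its own tail.

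Clec4e (ENSMUSG00000030142, mm10 chr6:123281789-123289870, minus strand) had the most counts of the 10 and ranked 20 among all genes by mean CPM. ICAM1high replicates 1 to 4 held 2597, 2049, 2658 and 3021 CPM of Clec4e, and ICAM1low replicates 1 to 4 held 5860, 4494, 5955 and 6701 CPM. The fractions did not overlap, and replicate 2 was the lowest of both. The means were 2581 ± 401 and 5753 ± 920 CPM (SD, n = 4), a log2 fold change of -1.16 (SE 0.18, 95% interval -1.55 to -0.76, edgeR adjusted p = 0.000665). Scaling by library totals left -0.46 (edgeR adjusted p = 0.0207).

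Clec4d (ENSMUSG00000030144, mm10 chr6:123262111-123275265, plus strand) lies next to Clec4e and showed the largest decrease among the 10 receptors. It stood at 656, 339, 401 and 436 CPM in ICAM1high replicates 1 to 4 and at 1688, 1635, 2230 and 2951 CPM in ICAM1low replicates 1 to 4. Every ICAM1low library was above every ICAM1high library, and ICAM1low replicate 4 was the highest. The means were 458 ± 138 and 2126 ± 612 CPM (SD, n = 4), a log2 fold change of -2.21 (SE 0.26, 95% interval -2.80 to -1.63, edgeR adjusted p = 0.000139).

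Clec7a (ENSMUSG00000079293, mm10 chr6:129461591-129472779, minus strand) has the biotype polymorphic pseudogene in the deposited table, a class for genes that code for a protein in some strains. Its levels were 577, 407, 541 and 461 CPM in ICAM1high replicates 1 to 4 and 1367, 1021, 1561 and 1218 CPM in ICAM1low replicates 1 to 4. The fractions did not overlap, with the lowest ICAM1low library above the highest ICAM1high library. The means were 497 ± 76.7 and 1292 ± 229 CPM (SD, n = 4), a log2 fold change of -1.38 (SE 0.18, 95% interval -1.78 to -0.98, edgeR adjusted p = 0.000258), and -0.70 with library totals (edgeR adjusted p = 0.00453). The neutrophil marker list was lower in the same libraries, with 17 of 17 tested genes lower in ICAM1high. Its part in the decrease of Clec4d, Clec4e and Clec7a was not tested.

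The sequences upstream of these 3 genes, the lower receptors, are shown with matches to short myeloid motifs. They are the 250 bases before the RefSeq transcript start (build GRCm38.p6), read 5′ to 3′ on the gene's strand, at chr6:123289872-123290121 for Clec4e (minus), chr6:123261857-123262106 for Clec4d (plus) and chr6:129472780-129473029 for Clec7a (minus). Capitals mark GAGGAA or its reverse complement TTCCTC, the core bound by PU.1, an ETS factor of myeloid cells, and in Clec4e also TTNNGCAA or TTGCNNAA, letters bound by C/EBP factors of the granulocyte line.
Clec4e: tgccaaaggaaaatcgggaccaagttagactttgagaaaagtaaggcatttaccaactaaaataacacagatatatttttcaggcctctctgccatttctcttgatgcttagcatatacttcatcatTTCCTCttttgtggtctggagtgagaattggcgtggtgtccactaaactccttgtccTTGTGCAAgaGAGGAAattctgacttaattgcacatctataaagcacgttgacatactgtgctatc
Clec4d: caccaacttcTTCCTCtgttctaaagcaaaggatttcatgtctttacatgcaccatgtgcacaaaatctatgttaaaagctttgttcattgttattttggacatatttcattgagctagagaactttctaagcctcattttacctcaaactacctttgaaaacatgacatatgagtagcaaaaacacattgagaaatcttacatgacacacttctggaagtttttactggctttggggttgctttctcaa
Clec7a: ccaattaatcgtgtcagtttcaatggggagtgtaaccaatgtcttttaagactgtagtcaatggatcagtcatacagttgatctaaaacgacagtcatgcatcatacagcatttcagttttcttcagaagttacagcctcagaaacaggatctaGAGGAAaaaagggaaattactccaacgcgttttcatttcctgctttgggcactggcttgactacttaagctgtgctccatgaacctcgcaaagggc
The PU.1 letters began 123 and 56 bases before the start in Clec4e, 240 bases before it in Clec4d and 96 bases before it in Clec7a. Clec4e also held the C/EBP letters, 66 bases before the start and 2 bases from the nearer PU.1 match. Promoters of 8 of the 10 receptors were matched by symbol, all but Clec4n and Clec10a, and 7 of the 8 held the PU.1 letters, against 23.3% of 32851 windows of the same length. A receptor counted if any of its windows held a match, with 10 windows for the 8 receptors. This percentage and those below are of single windows. The C/EBP letters were in 2 of the 8, Clec4e and Clec12a, against 9.56% of windows. The AP-1 letters TGANTCA were in 1 of the 8, Clec12a, against 6.75%. The PU.1 letters thus occur in receptors that were higher as well as in those that were lower, and a match is not a measured binding site.

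Clec4n and Clec5a, the remaining activating receptors, did not pass the test. Clec4n (Dectin-2; ENSMUSG00000023349, mm10 chr6:123229843-123247021, plus strand) binds mannose-rich fungal walls and couples to FcR gamma. It measured 729, 369, 401 and 348 CPM in ICAM1high replicates 1 to 4, and 385, 363, 469 and 499 CPM in ICAM1low replicates 1 to 4. The fractions overlapped, and ICAM1high replicate 1 alone was above every ICAM1low library. The log2 fold change was 0.11 (SE 0.24, 95% interval -0.43 to 0.65, edgeR adjusted p = 0.755). Without ICAM1high replicate 1 it was -0.24 (edgeR adjusted p = 0.266), and with library totals it was 0.78 and passed (edgeR adjusted p = 0.00908).

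Clec5a (MDL-1; ENSMUSG00000029915, mm10 chr6:40574894-40585821, minus strand) couples to DAP12 and is known as a receptor for dengue virus. It held 422, 403, 432 and 387 CPM in ICAM1high replicates 1 to 4, a narrow range, and 334, 284, 360 and 202 CPM in ICAM1low replicates 1 to 4. All ICAM1high libraries were above all ICAM1low libraries, and ICAM1low replicate 4 was the lowest of its group. The log2 fold change of 0.48 (SE 0.18, 95% interval 0.07 to 0.89) had an edgeR adjusted p of 0.0584. It passed with limma-voom (0.51, adjusted p = 0.0431) and with library totals (1.15, edgeR adjusted p = 0.000957).

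Clec10a (MGL1; ENSMUSG00000000318, mm10 chr11:70156197-70170834, plus strand) binds galactose and N-acetylgalactosamine and is known from macrophages and dendritic cells. It was the only member of the 10 outside chromosome 6 and had the lowest level per kb of length in both fractions. It held 23.0, 14.4, 5.45 and 10.4 CPM in ICAM1high replicates 1 to 4 and 2.27, 0.795, 0.690 and 2.31 CPM in ICAM1low replicates 1 to 4. The fractions did not overlap, and the ICAM1low values rested on 12 to 37 counts a library. The difference was 8.86-fold, a log2 fold change of 3.15 (SE 0.53, 95% interval 1.97 to 4.32, edgeR adjusted p = 0.00107). Of its 50-base transcript windows 9.02% also occurred in other genes, among them Mgl2, its closest relative, so some reads may belong to that gene. Mgl2 was higher too, with 5.99 ± 2.64 against 0.528 ± 0.245 CPM (SD, n = 4) and a log2 fold change of 3.48. The macrophage marker list, with 14 of 16 tested genes higher, moved in the same direction, and its part in the difference was not tested.

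The Clec4a genes code for DCIR and its relatives, and DCIR itself (Clec4a2) carries an ITIM. Clec4a1 (DCIR4) and Clec4a3 (DCIR3) were higher in ICAM1high by 7.50-fold and 2.76-fold, and Clec4a2 did not pass. Per kb of length, the ranges of Clec4a1 and Clec4a3 overlapped in ICAM1high, while in ICAM1low Clec4a1 lay below both of the others.

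Clec4a1 (ENSMUSG00000049037, mm10 chr6:122921848-122934619, plus strand) had the smallest p of the 10. ICAM1high replicates 1 to 4 held 113, 73.8, 67.1 and 60.0 CPM of Clec4a1, and ICAM1low replicates 1 to 4 held 7.56, 12.2, 9.84 and 12.2 CPM. The lowest ICAM1high library was several times above the highest ICAM1low library. The means were 78.4 ± 23.5 and 10.4 ± 2.23 CPM (SD, n = 4), a log2 fold change of 2.91 (SE 0.25, 95% interval 2.36 to 3.46, edgeR adjusted p = 1.75e-05).

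Clec4a3 (ENSMUSG00000043832, mm10 chr6:122952515-122969875, plus strand) lies next to Clec4a1. It held 86.5, 60.7, 53.2 and 49.4 CPM in ICAM1high replicates 1 to 4 and 18.3, 16.5, 27.7 and 28.1 CPM in ICAM1low replicates 1 to 4. The fractions did not overlap. The means were 62.5 ± 16.7 and 22.6 ± 6.11 CPM (SD, n = 4), a log2 fold change of 1.46 (SE 0.24, 95% interval 0.93 to 2.00, edgeR adjusted p = 0.000977).

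Clec4a2 (ENSMUSG00000030148, mm10 chr6:123106428-123143999, plus strand) held 118, 70.8, 67.7 and 59.3 CPM in ICAM1high replicates 1 to 4 and 35.6, 50.1, 55.9 and 73.4 CPM in ICAM1low replicates 1 to 4. ICAM1low replicate 4 lay above 3 of the 4 ICAM1high libraries. The log2 fold change was 0.56 (SE 0.27, 95% interval -0.03 to 1.14, edgeR adjusted p = 0.116). It was 0.74 and passed without ICAM1low replicate 4 (edgeR adjusted p = 0.0393), and 1.25 with library totals (edgeR adjusted p = 0.00128). Of the 50-base transcript windows of Clec4a2, 6.83% also occurred in other genes, among them Clec4a4 and Clec4b1, and no window of Clec4a1 or Clec4a3 occurred in another gene. The summed counts of the 6 Clec4a and Clec4b genes came to 226 ± 69.5 CPM in ICAM1high and 90.5 ± 23.4 CPM in ICAM1low (SD, n = 4), a log2 fold change of 1.32 (SE 0.25, edgeR adjusted p = 0.002).

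The upstream sequence of Clec4a1, the most strongly separated of the Clec4a genes, is shown for comparison with the lower receptors, with the same 250 bases, build and capitals, at chr6:122921598-122921847 on the plus strand.
Clec4a1: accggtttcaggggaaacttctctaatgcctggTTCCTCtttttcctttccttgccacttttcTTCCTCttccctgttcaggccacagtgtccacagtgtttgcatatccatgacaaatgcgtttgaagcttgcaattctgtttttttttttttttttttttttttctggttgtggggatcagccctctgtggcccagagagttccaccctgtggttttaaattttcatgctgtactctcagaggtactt
Its PU.1 letters began 217 and 187 bases before the start. The first of them lies in the longest run that any promoter windows of different receptors shared, 17 bases in Clec4a1 and Clec4a3, against 12 bases in the next of 43 window pairs. The run is in capitals in 30 bases of each gene, at chr6:122921620-122921649 and chr6:122952583-122952612 (GRCm38.p6, plus strand), where it surrounds the PU.1 letters.
Clec4a1: ctaatgCCTGGTTCCTCTTTTTCctttcct
Clec4a3: taatgcCCTGGTTCCTCTTTTTCattcctt
The run began 222 bases before the start in Clec4a1 and 55 bases before it in Clec4a3. Clec4a3 had 2 windows, from different RefSeq starts, and only the window whose start lies inside the deposited gene held the run. The other window held no PU.1 letters and shared at most 8 bases with that of Clec4a1. Both genes that hold the run are neighbours and were higher in ICAM1high. Clec4a2, which did not pass, held none of the 3 motifs in its window. Clec5a, which did not pass either, held the PU.1 letters, as did the lower receptors. Whether the run or the letters bear on the levels was not tested.

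Clec12a (MICL; ENSMUSG00000053063, mm10 chr6:129342691-129365303, plus strand) is an inhibitory receptor with an ITIM that senses uric acid crystals of dead cells. It held 63.0, 23.2, 34.5 and 29.4 CPM in ICAM1high replicates 1 to 4 and 16.9, 17.1, 15.7 and 28.0 CPM in ICAM1low replicates 1 to 4. The ranges overlapped, since ICAM1low replicate 4 lay above ICAM1high replicate 2. The log2 fold change was 0.95 (SE 0.31, 95% interval 0.26 to 1.65, edgeR adjusted p = 0.0325), and 0.54 without ICAM1high replicate 1 (edgeR adjusted p = 0.104). The call was also lost without ICAM1high replicate 3 or any of ICAM1low replicates 1, 2 and 3, at edgeR adjusted p-values of 0.0649 to 0.0892 and log2 fold changes of 0.86 to 0.97.

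Of the 10 receptors, 9 lie on chromosome 6, and 6 of them sit in a stretch of 368 kb with 9 Clec4 genes. Clec4a1 and Clec4a3, at the proximal end of the stretch, were higher in ICAM1high. Clec4d and Clec4e, at the distal end and 6.5 kb apart, were lower. Between them, Clec4a4, Clec4a2, Clec4b2 and Clec4n did not pass, with log2 fold changes of 0.35, 0.56, -0.67 and 0.11. Clec4b1 was the exception in the middle, with 2.60 (SE 0.67, edgeR adjusted p = 0.0104) from 265 counts over the 8 libraries. Clec12a and Clec7a, 96.3 kb apart in another lectin cluster of the chromosome, differed in opposite directions.

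**Figure D2:**
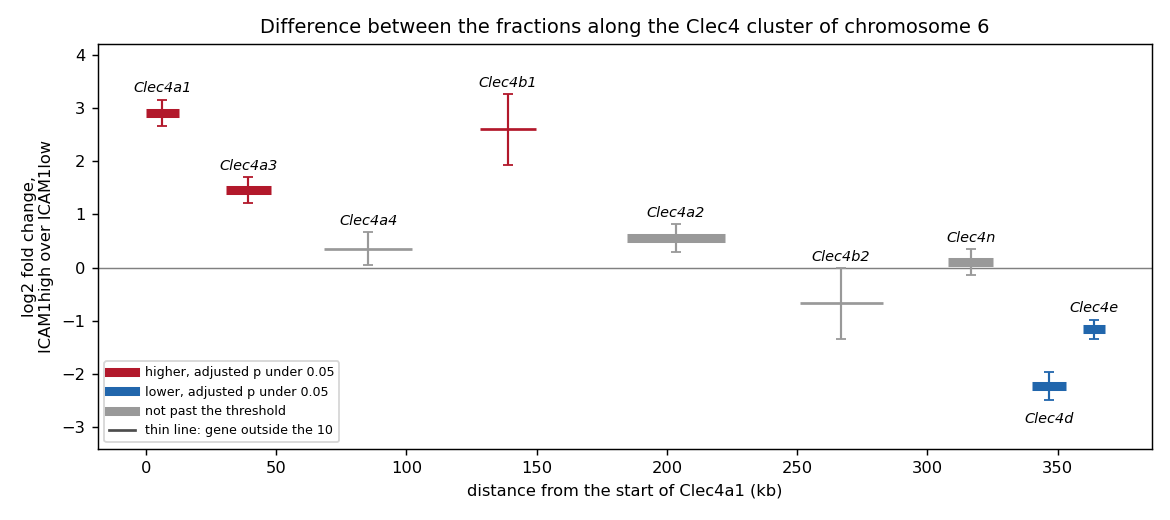
Log2 fold change, ICAM1high over ICAM1low, of the 9 Clec4 genes against their distance in kb from the start of Clec4a1, with bars of 1 standard error and the width of each mark showing the gene. Values run from 2.91 at Clec4a1 to -2.21 at Clec4d and -1.16 at Clec4e, and the members of the 10 are the thick marks.

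Levels of different receptors can be compared only per length, here as CPM per kb of the deposited gene length. That length is the union of all annotated exons for all 10 genes and includes retained introns for Clec4e. On this scale the 10 receptors summed to 1563 ± 295 in ICAM1high (1270 to 1973) and 3403 ± 622 in ICAM1low (2685 to 4121; SD, n = 4). In ICAM1low the order of mean level was Clec4d, Clec4e, Clec7a, Clec4n, Clec5a, Clec4a2, Clec4a3, Clec4a1, Clec12a and Clec10a. The ranges of Clec4d and Clec4e overlapped, as did those of Clec4a2 and Clec4a3 and those of Clec4a1 and Clec12a, and the other neighbours were apart. In ICAM1high the order was Clec4e, Clec4n, Clec4d, Clec7a, Clec5a, Clec4a1, Clec4a3, Clec4a2, Clec12a and Clec10a. Each of the first 3 overlapped the next, as did Clec4a1 with Clec4a3, Clec4a3 with Clec4a2, and Clec12a with Clec10a.

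Within a library the make-up of the receptors does not depend on the scaling. Clec4d made up 18.1% ± 1.94 of the summed per-length level in ICAM1high and 38.6% ± 4.63 in ICAM1low (SD, n = 4). Clec4e made up 33.8% ± 5.82 and 34.2% ± 2.25, so its share differed by less than the spread although its level fell. The share of Clec4n was 20.4% ± 4.13 in ICAM1high and 8.93% ± 0.456 in ICAM1low, while its level did not pass the test. Clec5a held 7.01% ± 1.15 against 2.34% ± 0.716, and Clec7a 12.1% ± 1.11 against 14.6% ± 2.42. The Clec4a genes were a small part in both fractions. Clec4a1 held 3.21% ± 0.583 against 0.202% ± 0.0611, and Clec4a3 3.01% ± 0.529 against 0.496% ± 0.0590. Clec4a2 held 1.71% ± 0.325 against 0.539% ± 0.113.

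**Figure D3:**
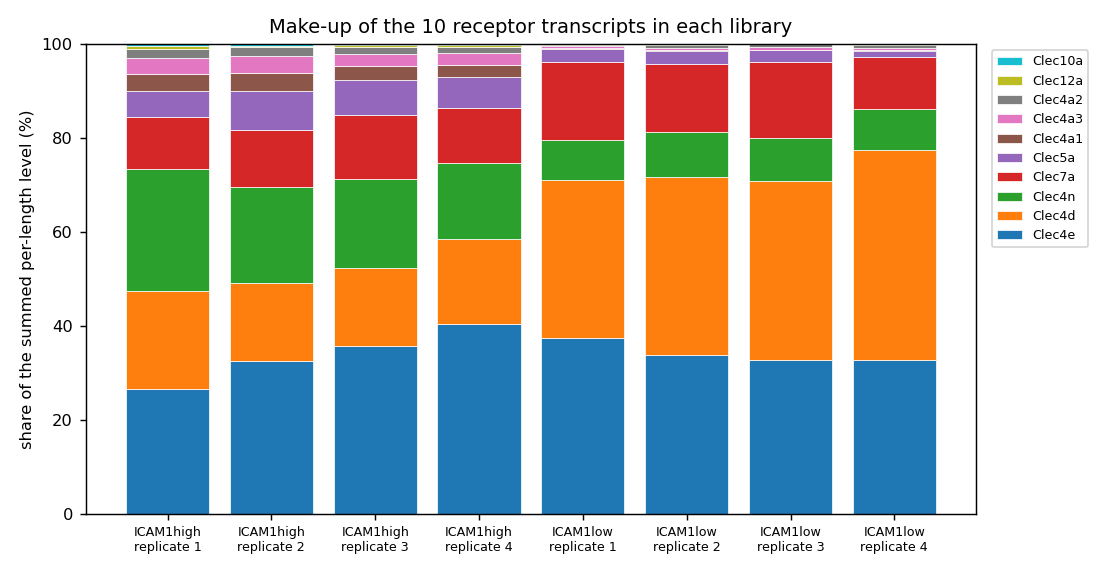
Share of each receptor in the summed per-length level of the 10 receptors, in percent, with 1 stacked bar for each of the 8 libraries. Clec4d takes 38.6% on average in ICAM1low and 18.1% in ICAM1high, and the share of Clec4n is larger in each ICAM1high library than in any ICAM1low library.

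Ratios of receptors within a library, also per length and free of scaling, were computed for 6 chosen pairs of the 45. The fractions were apart in 5 of the 6. Among single genes tested 41.5% had ranges apart, and no such share was computed for ratios. Clec4a1 and Clec5a were higher, and Clec4e and Clec7a lower, in every ICAM1high library than in any ICAM1low library. The ratios Clec4a1 over Clec4e and Clec5a over Clec7a therefore had to separate. Clec4n over Clec4d, both FcR gamma receptors of the same cluster, was 0.898 to 1.25 in ICAM1high and 0.190 to 0.257 in ICAM1low. Clec4d over Clec4e, which code for proteins known to form a joint receptor complex, was 0.448 to 0.785 in ICAM1high and 0.895 to 1.37 in ICAM1low. Clec4d was thus lower relative to its partner in every ICAM1high library than in any ICAM1low library. Clec5a over Clec7a was 0.503 to 0.680 against 0.114 to 0.191. Clec4a1 over Clec4a2 was 1.79 to 1.96 in ICAM1high, a narrow range, against 0.313 to 0.456 in ICAM1low. Clec4a1 over Clec4e was 0.0633 to 0.138 against 0.00411 to 0.00863. Clec7a over Clec4e overlapped, at 0.287 to 0.418 and 0.342 to 0.493.

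The library names fall in a pair of number series, with replicates 1 and 2 in the first series and replicates 3 and 4 in the other; what the series are is not stated. Fitted within each series with edgeR, Clec4e differed by -1.16 and -1.21 on the log2 scale, Clec7a by -1.28 and -1.52, and Clec4d by -1.74 and -2.68. Clec4a1 differed by 3.24 and 2.48, and Clec4a3 by 2.08 and 0.83. All 5 genes passed in both series. Clec10a differed by 3.62 and passed in the first series, and by 2.34 in the other, where it did not pass (edgeR adjusted p = 0.0626). Clec12a gave 1.34 and 0.49, and did not pass in replicates 3 and 4 (edgeR adjusted p = 0.326). Clec4a2 gave 1.14 and passed in replicates 1 and 2 (edgeR adjusted p = 0.0367), and gave -0.078 in replicates 3 and 4 (edgeR adjusted p = 0.825). Clec4n gave 0.55 and -0.42, and Clec5a 0.41 and 0.50, and neither passed in a series. The difference between the series was tested as an interaction, which called 0 of 14051 genes in edgeR after adjustment (0%). At an unadjusted p under 0.05 it marked 1606 genes. Genes can vary together across libraries, so this count cannot be set against chance. Among the receptors, the difference between the series was -1.22 for Clec10a (edgeR adjusted p = 0.54), -1.20 for Clec4a3 and -1.17 for Clec4a2. The edgeR unadjusted p was 0.00578 for Clec4a3 and 0.0232 for Clec4a2, and above 0.05 for every other receptor. After adjustment it was 0.417 for Clec4a3 and Clec4a2, and no receptor passed.

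**Figure D4:**
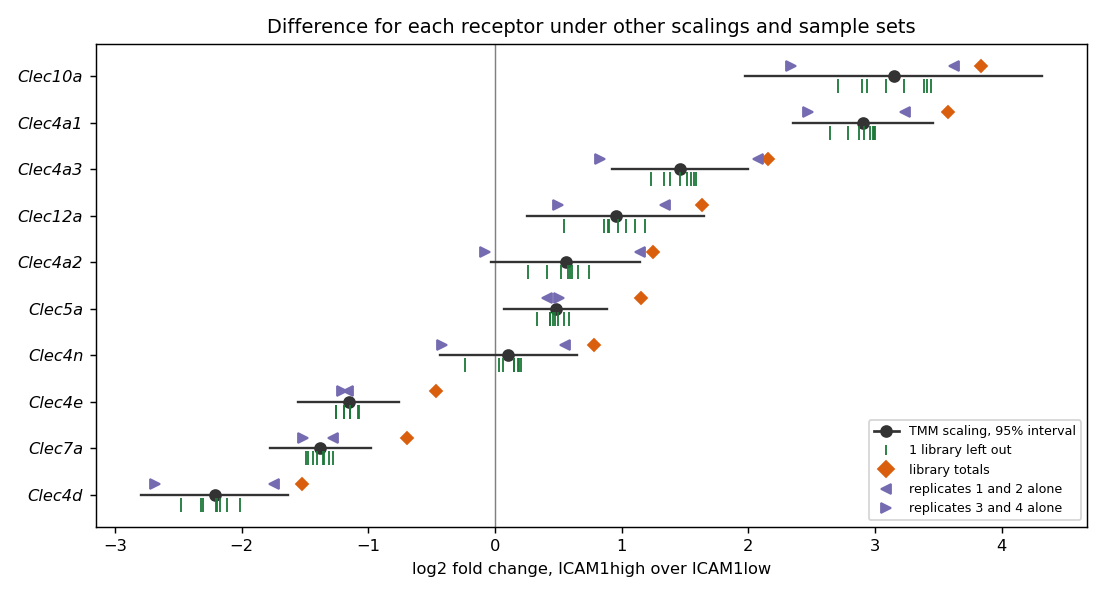
Log2 fold change, ICAM1high over ICAM1low, of each receptor with its 95% interval (black), with each library left out in turn (green ticks), scaled by library totals (orange) and in each number series alone (purple triangles). The estimates of Clec4a2 and Clec4n lie on both sides of 0, and those of the other receptors keep their side throughout. Library totals move every receptor to the right.

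Across the 8 libraries, with the difference between the fractions included, the lower receptors varied together and opposite to Clec4a1. The Pearson correlation of log2 CPM was 0.961 for Clec4d with Clec4e, 0.956 for Clec4d with Clec7a and 0.955 for Clec4e with Clec7a. It was -0.936 for Clec4a1 with Clec4e, the most negative of the 45 receptor pairs. These values over 8 libraries carry the difference between the fractions and share each library's scaling. After the group means were removed, Clec4d and Clec4e had 0.616, Clec4d and Clec7a 0.503, and Clec4e and Clec7a 0.558. Clec4d had higher values with receptors that were not lower, namely Clec12a (0.873), Clec4n (0.860), Clec4a2 (0.838) and Clec4a3 (0.83). Clec4a1 and Clec4a2 had 0.912. Clec4a1 then had 0.616 with Clec4d, the opposite sign to its -0.893 before, -0.216 with Clec4e and -0.014 with Clec7a.

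For each receptor the 3 protein-coding genes with the most similar profile were named, from 7697 or 7698 candidates whose log2 CPM averaged 3 or more. These are the highest of many correlations over 8 libraries and carry the difference between the fractions. They were not computed with the group means removed. Clec4a1 was most like Ccl12 (r = 0.998), Ctss (0.998) and C1qa (0.997), and C1qa is on the macrophage marker list. Clec4e was most like Il1f9 (0.997), which codes for an IL-36 cytokine, Mapkapk2 (0.994) and Tnfrsf1b (0.993), a TNF receptor. Clec4d was most like Snx20, Sra1 and Glrx (0.997 to 0.998), and Clec7a was most like Med7, Arrdc4 and Irak2 (0.993 to 0.996). Clec4a3 followed Chid1, Tysnd1 and Pla2g16 (0.984 to 0.990), and Clec4a2 followed the ribosomal gene Rps24 (0.998), Adrm1 (0.994) and Sumo3 (0.991). Clec10a followed Cfl2, Ldhb and Aif1 (0.964 to 0.980), and Clec12a followed Tnfrsf14, Ppa1 and Psmb10 (0.958 to 0.981). Clec5a was most like Tex10, Gfm2 and Pus10 (0.980 to 0.992). Clec4n had no match above 0.940, its value with Irf5, ahead of Ccl4 (0.937) and Tgfb1 (0.935).

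Of the 28 adaptor, kinase and CARD9 complex genes through which these receptors signal, 12 were lower in ICAM1high and 5 higher with TMM. With library totals 1 was lower and 11 were higher. Over all genes tested, 19.6% were lower and 22.6% higher with TMM, and 5.97% and 48.5% with library totals. The median log2 fold change of the list was -0.32. The 4 with the smallest p were all higher: Blnk (3.43, edgeR adjusted p = 6.56e-06), Lat2 (2.59), Vav2 (2.49) and Nfatc2 (1.96). Blnk and Lat2 code for adaptors, Vav2 for an exchange factor and Nfatc2 for a calcium-regulated transcription factor. They were scarce, at 20.3 to 34.6 CPM on average in ICAM1high and 3.21 to 5.62 CPM in ICAM1low. Syk and, of the CARD9 complex, Card9 and Bcl10 were lower with TMM, while Malt1 did not pass. These genes are named here after their values were seen. Syk had 614 ± 76.6 against 1306 ± 222 CPM, Card9 69.9 ± 8.44 against 143 ± 33.3 CPM, and Bcl10 106 ± 15.4 against 292 ± 72.5 CPM (SD, n = 4). The differences on the log2 scale were -1.09, -1.03 and -1.46 (edgeR adjusted p = 0.000677, 0.00157 and 0.000338). With library totals they were -0.40, -0.35 and -0.76, and of the 3 only Bcl10 passed (edgeR adjusted p = 0.00304). Malt1, the other part of the complex, had -0.13 (edgeR adjusted p = 0.768).

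The adaptors of the receptors were more variable. Fcer1g had 310 ± 120 against 586 ± 243 CPM and Tyrobp 534 ± 238 against 1235 ± 644 CPM (SD, n = 4). The differences on the log2 scale were -0.92 and -1.21 (edgeR adjusted p = 0.0376 and 0.0228), and with library totals -0.22 and -0.51 (edgeR adjusted p = 0.503 and 0.191). Both calls were lost without ICAM1high replicate 2, 3 or 4 or ICAM1low replicate 4, and that of Fcer1g also without ICAM1low replicate 3. With a replicate block neither Fcer1g nor Tyrobp passed (edgeR adjusted p = 0.103 and 0.0796). Without ICAM1low replicate 4, Tyrobp differed by -0.78.

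Of 15 phosphatases and other brakes on these signals, 14 were tested. With TMM 5 were higher and 3 lower, against 22.6% and 19.6% of all genes tested. With library totals 9 were higher and 0 lower, against 48.5% and 5.97%. The autophagy regulator Rubcn (1.57), the adaptor Dok1 (1.08) and the phosphatase Ptpn22 (1.15) were higher, with edgeR adjusted p-values of 0.000985 to 0.00202. Ptpn6, the SHP-1 phosphatase that ITIM receptors recruit, had 551 ± 105 against 945 ± 115 CPM (SD, n = 4) and a log2 fold change of -0.78 (edgeR adjusted p = 0.00493), but -0.095 with library totals (edgeR adjusted p = 0.605).

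Of 20 genes known to be induced by SYK and CARD9 signals, 18 were tested. With TMM 7 were lower and 3 higher, against 19.6% and 22.6% of all genes tested. With library totals 3 were lower and 7 higher, against 5.97% and 48.5%. Il1b, the interleukin-1 beta gene, had 7387 ± 1575 CPM in ICAM1high and 21709 ± 2506 CPM in ICAM1low (SD, n = 4), a log2 fold change of -1.56 (edgeR adjusted p = 0.000143). The neutrophil chemokine Cxcl2 (-1.53), the growth factor Csf3 (-1.31) and the NF-kappaB cofactor Nfkbiz (-1.09) were also lower, with edgeR adjusted p-values of 0.000388 to 0.00117. Nfkbiz had -0.41 with library totals and did not pass (edgeR adjusted p = 0.098). Of the 3 that were higher, all cytokine genes and named after their values were seen, Il10 had 12.1 ± 4.68 against 2.39 ± 1.09 CPM (SD, n = 4). Il23a had 119 ± 34.4 against 73.5 ± 14.3 CPM (SD, n = 4), a log2 fold change of 0.69 (edgeR adjusted p = 0.0294). Its ranges overlapped, and its call was lost without ICAM1high replicate 1 (0.46) or 3 (0.65), without ICAM1low replicate 1 (0.62) or 2 (0.61), and with a replicate block (0.67, edgeR adjusted p = 0.0757). Il12b reached at most 63 counts in a library.

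Of 6 reported protein ligands of these receptors 5 were tested. With TMM 2 were higher and 2 lower, against 22.6% and 19.6% of all genes tested. With library totals 3 were higher and 1 lower, against 48.5% and 5.97%. Anxa5 (2.07) and Vim (0.89) were higher, and Anxa1 (-1.61) was lower, with edgeR adjusted p-values of 6.54e-05, 0.00465 and 0.000214. Annexins and vimentin are released or exposed by dying cells. Lgals9, the galectin-9 gene, had -1.13 (edgeR adjusted p = 0.00898) and -0.43 with library totals (edgeR adjusted p = 0.165).

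Among 46 other C-type lectin genes, 34 were tested. With TMM 15 were higher and 3 lower, against 22.6% and 19.6% of all genes tested. With library totals 21 were higher and 3 lower, against 48.5% and 5.97%. The median log2 fold change of the 34 lectin genes was 0.86. The scavenger lectin Colec12 had 74.8 ± 14.5 against 3.43 ± 0.501 CPM (SD, n = 4), a log2 fold change of 4.44 (edgeR adjusted p = 1.04e-06). Cd72, a lectin with an ITIM, had 186 ± 37.2 against 8.31 ± 1.70 CPM (SD, n = 4), a log2 fold change of 4.49. Cd93 had 98.4 ± 20.0 against 17.2 ± 2.10 CPM (SD, n = 4), a log2 fold change of 2.51. Mrc1, the mannose receptor and also a macrophage marker of the list above, had 4.12. Several of the higher lectins, such as Cd209b and Klrb1b (named after their values were seen), stayed under 100 counts in every library, and with a minimum of 50 counts in 4 libraries 7 genes were higher. In replicates 3 and 4 alone 7 were higher.

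**Figure D5:**
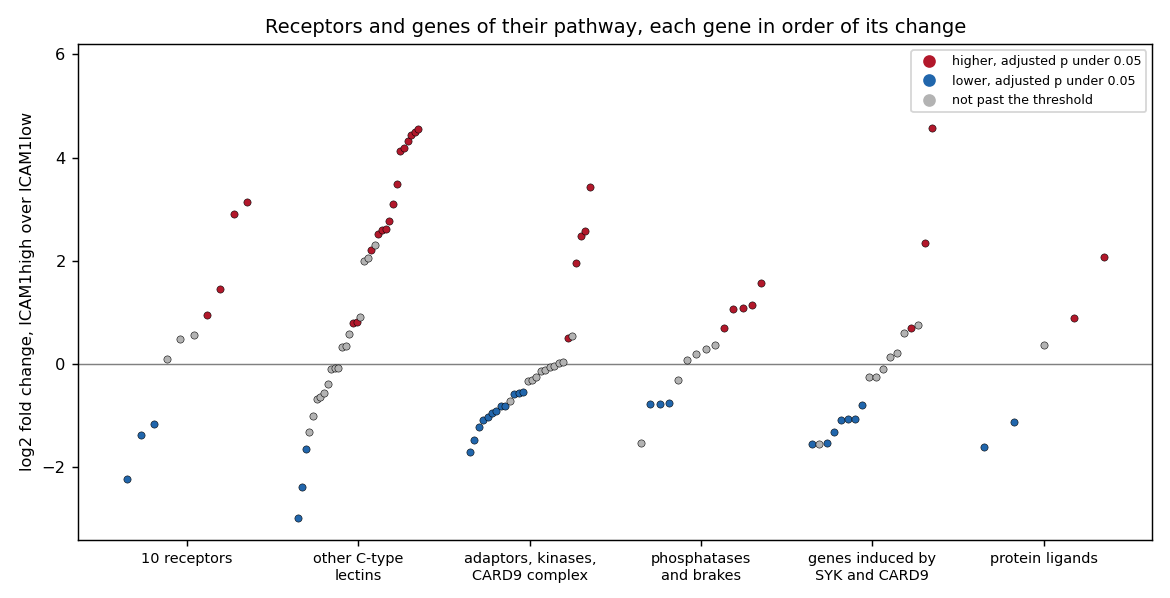
Log2 fold change, ICAM1high over ICAM1low, of every tested gene of the 10 receptors and the 5 companion lists, in order of its value within each list and coloured by its edgeR call with TMM scaling. The receptors run from -2.21 to 3.15, and the adaptor and kinase list holds 12 lower and 5 higher genes.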

How the data were processed

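The libraries were prepared for mRNA sequencing, per the labels' protocols. The authors deposited 1 table of unnormalized whole-number read counts per gene, with gene names, positions, biotypes and gene lengths in bases. The deposited length is an other quantity, used for levels per kb and for the part of the counts in genes shorter than 1000 bases. The submitters' processing notes name HISAT2 and mm10, and the sources used here give no counting tool, strand setting or annotation. Reads of related or overlapping genes may therefore have been counted for either gene. In GENCODE M21 all 10 receptors had the deposited positions. Genes were filtered with filterByExpr, scaled by TMM and tested across all 8 libraries with edgeR 4.0.16 in R 4.3.3. CPM uses TMM-scaled totals, and log2 CPM a prior count of 2. Standard errors were derived from the log2 fold change and the F statistic. The method was tested on simulated data.

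The receptors, the lists, the tests and the alternatives were chosen with earlier results of these data known. Named genes were the 10 receptors, up to 4 genes of each list with the smallest p (among those whose log2 CPM averaged 1 or more), and the 3 genes most like each receptor. Of these, 1 gene is not reported here. Alternatives were DESeq2 1.42.0, limma-voom (limma 3.58.1), other scalings and filters, a robust fit, the library-number series, a replicate block, the Clec4a and Clec4b sum and libraries left out. Promoter windows came from RefSeq (GRCm38.p6). Counts per library of 10328575 to 22751975 limit the precision of low values such as Clec10a.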

Additional observations from a re-analysis of the deposited data

Results flagged for a closer look

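Of the 20 combinations of a receptor and a fraction, 2 held a library far from the other 3 of its group, as a gap to the nearest library that exceeded Dixon's 95% critical value. Chance marks about 1 in 20 such groups. Clec4n stood at 729 CPM in ICAM1high replicate 1, against 348 to 401 CPM in the other ICAM1high libraries. Clec12a stood at 28.0 CPM in ICAM1low replicate 4, against 15.7 to 17.1 CPM in the other ICAM1low libraries. The marker sums of macrophages and neutrophils were highest in these same libraries of their groups, and their part in the values was not tested.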

How the results depend on the processing

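Clec4a1, Clec4a3, Clec4d, Clec4e and Clec7a passed in the same direction in all 21 alternative fits, from 2.48 to 3.58, 0.83 to 2.16, -2.68 to -1.52, -1.26 to -0.46 and -1.52 to -0.70. With library totals, Clec4a2 (1.25), Clec4n (0.78) and Clec5a (1.15) also passed, so that 7 receptors were higher. Clec5a passed with limma-voom (0.51), and ranged from 0.33 to 0.58 with each library left out, passing without ICAM1low replicate 3, with 0.29 without both ICAM1high replicate 1 and ICAM1low replicate 4. Clec4a2 passed in replicates 1 and 2 alone (1.14) and without the same 2 libraries (0.45, edgeR adjusted p = 0.0493). The sum of the Clec4a and Clec4b counts differed by 1.32, but it holds Clec4a1 and Clec4a3, which pass alone, and is no test of Clec4a2. With single libraries left out Clec4a2 ranged from 0.26 to 0.74. In replicates 3 and 4 alone 2 receptors were higher, Clec10a (2.34) and Clec12a (0.49) did not pass, and Clec4a2 (-0.078) and Clec4n (-0.42) changed sign. Clec4n also changed sign without ICAM1high replicate 1 (-0.24) and without both libraries (-0.15), and ranged from -0.24 to 0.21 with single libraries left out. Clec12a did not pass with the library-number series as a covariate (0.95, edgeR adjusted p = 0.0527), and ranged from 0.54 to 1.18 with single libraries left out. The cause of these changes was not tested, and the subsets also hold fewer samples.

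The libraries of both fractions carry the same numbers, which may mark a shared tumour, but the labels do not say so. Deviations of same-numbered libraries had correlations of -0.566, 0.21, 0.184 and -0.3 after the group means were removed. Only for replicate 2 was the best match its own number. So few values cannot show that pairing is absent, and the main test took the libraries as unpaired. With a replicate block, Clec12a did not pass (0.88, edgeR adjusted p = 0.0858), no other receptor's call changed, and 2263 genes were higher and 1975 lower, against 3172 and 2748 without it. Over all genes, library totals gave 6818 and 839, replicates 1 and 2 alone 1708 and 1416, and replicates 3 and 4 alone 1658 and 1604. The adaptor and kinase list had 4 lower genes in replicates 1 and 2 alone and 7 in replicates 3 and 4 alone. In replicates 3 and 4 alone the brakes had 3 higher genes, the induced genes 0 higher and 4 lower in edgeR, and the ligands 1 higher. In replicates 1 and 2 alone the ligands had 1 lower gene. Without ICAM1high replicate 2 the adaptor list had 8 lower genes. Without ICAM1high replicate 1 the other lectins had 10 higher genes.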

Other observations

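Marker lists of other cell types were summed as well, and the calls below stand beside 22.6% of all genes tested higher and 19.6% lower. Monocyte markers came to 2343 to 2891 CPM in ICAM1high and 2704 to 4080 CPM in ICAM1low, with 4 of 8 higher and 2 lower in edgeR. Dendritic cell markers came to 98.3 to 193 and 59.8 to 85.7 CPM, with 3 of 9 tested genes higher, 1 lower and Xcr1 at 0 in ICAM1low. Lymphocyte markers came to 23.9 to 43.7 and 14.2 to 23.7 CPM, with Klrb1c at 0 in ICAM1low, and 1 of 3 tested genes was higher and 1 lower. Mast cell, basophil and eosinophil markers came to 120 to 174 and 77.9 to 107 CPM, with 1 of 3 tested genes higher and 2 lower, and Fcer1a and Prss34 at 0 in both fractions. Epithelial tumour markers came to 129 to 195 and 293 to 519 CPM, with 6 of 8 tested genes lower and Krt5 at 0 in ICAM1high. Stromal and endothelial markers came to 83.7 to 154 and 55.7 to 85.1 CPM, with 3 of 9 tested genes higher.

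The table named 33 Clec genes, of which 29 had at least 1 count and 22 were tested. Among those outside the 10, Clec12b, an inhibitory receptor that lies next to Clec12a, was lower in ICAM1high, with 4.30 ± 2.17 against 13.4 ± 4.72 CPM (SD, n = 4) and a log2 fold change of -1.64 (edgeR adjusted p = 0.00653). It was chosen after its values were seen, and its direction is opposite to that of Clec12a.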
